A study of Mus musculus with 12 samples.

Results

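The microRNAs (miRNAs) miR-26a and miR-26b were followed in mouse liver from fetal life to young adulthood. They were taken by name (mmu-miR-26a and mmu-miR-26b), as the 2 probes of that family among the 355 mouse probes of the table. Both were above the lowest listed value in all 12 livers. Livers came from C57Bl/6 mice at embryonic day 15.5 (e15.5, mixed sex) and from males at 2, 3 and 7 weeks of age, with 3 livers per age and neither a treatment nor a genetic change named in the labels. Total RNA was hybridised to the nanoString nCounter mouse miRNA panel, which counts barcoded probes without amplification. The fetal livers differ from the others in sex as well as age, 2 factors whose parts cannot be told apart, and whether an e15.5 sample was 1 embryo or a pool was not given. The series is titled for miR-122 and the postnatal rise of hepatocyte ploidy, and the ages fall on both sides of weaning, around which ploidy rises.

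A miRNA guides Argonaute proteins to messenger RNAs that pair with its seed, bases 2 to 8 from the 5′ end, and lowers their output. The miR-26 family is known for restraining growth: in human liver cancer cells miR-26a represses D- and E-type cyclins, and it also targets EZH2, the methyltransferase of the Polycomb complex. Its genes lie in genes of the CTDSP phosphatases, which in human cells act on the retinoblastoma protein.

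The sequences below, from RefSeq (GRCm38.p6), are shown because both probes report on one seed from separate loci. Capitals mark the seed.
miR-26a-5p: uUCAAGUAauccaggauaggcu
miR-26b-5p: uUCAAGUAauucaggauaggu

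The mature forms are 22 and 21 bases long. Counted from 1 at the 5′ end, they matched at 19 of the 21 shared positions, and miR-26b differed from miR-26a by C11U and C21U, both outside the seed. Of 1679 mature mouse names in the RefSeq table only these 2 carried this seed, so no other probe was named by the seed. Whether either probe also captured its near-identical partner was not tested.

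Identical mature miR-26a comes from a pair of genes, Mir26a-1 within Ctdspl (hairpin at chr9:119031796-119031885, + strand) and Mir26a-2 within Ctdsp2 (hairpin at chr10:126995530-126995613, + strand). The miR-26a probe therefore cannot tell these loci apart. Mir26b lies within Ctdsp1 (hairpin at chr1:74394310-74394394, + strand). The hairpins are shown because the shared 5′ arm sits in otherwise different precursors. Capitals mark the mature arms.
Mir26a-1: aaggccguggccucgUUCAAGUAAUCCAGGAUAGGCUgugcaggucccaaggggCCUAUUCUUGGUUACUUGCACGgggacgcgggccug
Mir26a-2: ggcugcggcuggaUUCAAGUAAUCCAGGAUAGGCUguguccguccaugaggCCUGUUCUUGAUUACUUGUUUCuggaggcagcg
Mir26b: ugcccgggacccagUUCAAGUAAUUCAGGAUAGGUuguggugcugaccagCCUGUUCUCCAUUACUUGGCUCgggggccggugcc

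The total linear signal per liver lay between 148505 and 618776 and was highest at 2 and 3 weeks. Undetected probes carry a single lowest value, here called the floor, and 114 probes, both miR-26 probes among them, were above it in every liver. The 100 brightest probes shifted together between ages, by 1.75 on the log2 scale from e15.5 to 2 weeks and by -1.48 from 2 to 7 weeks. Each change is therefore given as deposited and after every liver was centred on the mean of those 100 probes. The e15.5 liver of mouse 1 stood apart, with 143 probes at the floor against 64 and 44 in its group, so results that rest on it are also given without it.

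miR-26b was low in fetal liver and high in every postnatal liver. At e15.5 its log2 values were 7.49, 7.68 and 7.75 in mice 1 to 3. At 2 weeks they were 11.45, 11.46 and 11.52, at 3 weeks 11.07, 10.81 and 11.05, and at 7 weeks 9.69, 9.86 and 9.70. On this deposited scale no 2 ages overlapped. The order was 2 weeks, 3 weeks, 7 weeks and e15.5, with each neighbour in that order differing beyond the spread. After centring, the 3-week values overlapped those at 2 and at 7 weeks. How many other probes showed no overlap between ages was not counted. The fetal mean was 7.64 ± 0.13 (SD, n = 3), and the means at 2, 3 and 7 weeks were 11.48 ± 0.04, 10.98 ± 0.15 and 9.75 ± 0.09.

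Against e15.5, miR-26b rose by 3.84 ± 0.10 (log2 change ± SE) at 2 weeks, a 14.3-fold difference (limma, adjusted p = 5.4e-10). It was 10.1-fold higher at 3 weeks (adjusted p = 1.3e-09) and 4.32-fold higher at 7 weeks (adjusted p = 3.0e-08). Calls were common in these comparisons: 28.2%, 25.6% and 18.6% of the 355 probes were called higher at 2, 3 and 7 weeks. Among the 114 probes above the floor throughout, whose median change at 2 weeks was 1.96, the rise of miR-26b ranked 14 at 2 weeks, 19 at 3 weeks and 27 at 7 weeks.

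After centring, miR-26b went from 8.49 ± 0.13 (SD, n = 3) at e15.5 to 10.58 ± 0.18, 10.44 ± 0.11 and 10.33 ± 0.08 at 2, 3 and 7 weeks. The rises were then 4.26-fold, 3.87-fold and 3.59-fold (limma, adjusted p = 1.3e-07, 1.3e-07 and 1.8e-07), where 19.2%, 18% and 17.5% of probes were called higher. Leaving out e15.5 mouse 1 gave centred log2 changes of 2.03, 1.89 and 1.78. On both scales the lowest postnatal value exceeded the highest fetal one. The F test over 4 ages, which called 54.4% of probes as deposited and 61.1% centred, called miR-26b on both scales (limma, adjusted p = 9.7e-10 and 1.4e-07).

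**Figure D1:**
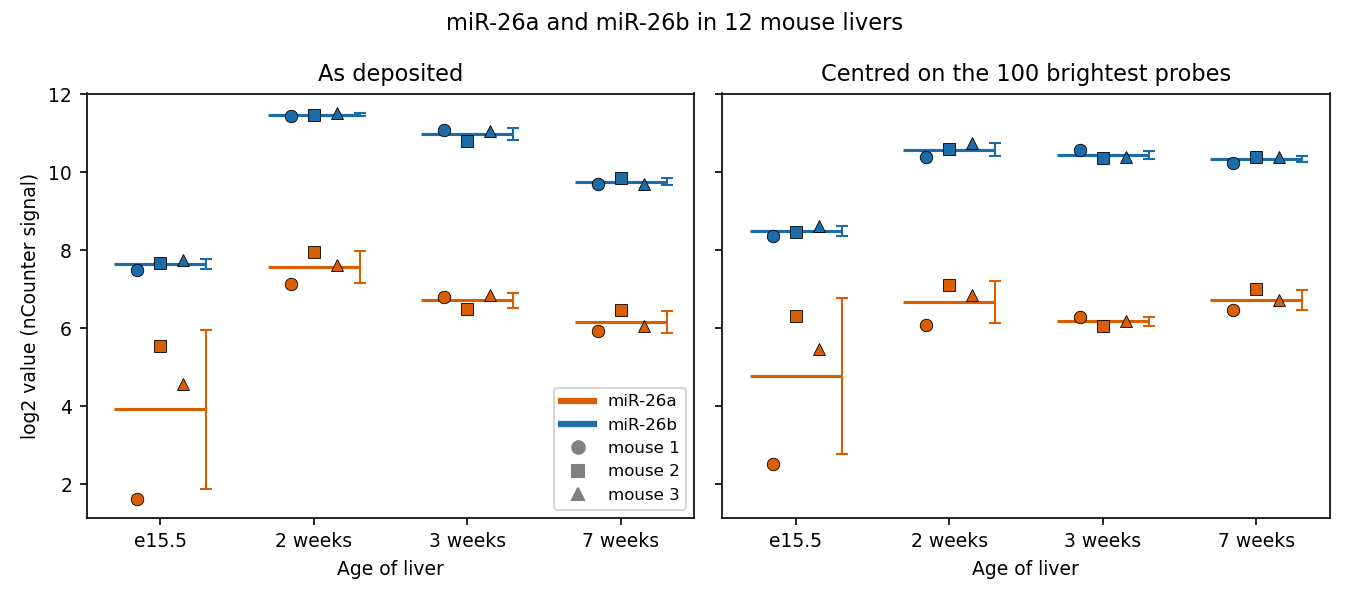
The log2 value of miR-26a (orange) and miR-26b (blue) is plotted for each of the 12 livers by age, as deposited (left) and after centring (right); symbols are mice, horizontal lines are means and bars are SDs of 3 livers. The 9 postnatal livers lie above the 3 e15.5 livers for miR-26b in both panels, and miR-26a in e15.5 mouse 1 (1.63 as deposited) lies far below the rest of its group.

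The fall of miR-26b between postnatal ages was seen on the deposited scale. It fell by 0.50 on the log2 scale from 2 to 3 weeks, by 1.23 from 3 to 7 weeks and by 1.73 from 2 to 7 weeks (limma, adjusted p = 0.0058, 4.1e-06 and 2.3e-07), where 15.5%, 29.6% and 36.1% of probes were called lower. After centring the same changes were -0.14 (95% interval -0.39 to 0.11), -0.11 (-0.36 to 0.14) and -0.25 (-0.50 to 0.005), with adjusted p = 0.62, 0.51 and 0.12, where 10.1%, 10.1% and 16.3% of probes were called lower. The deposited falls were thus of the size of the shift of the bright probes, which was -0.36, -1.12 and -1.48. Over the 3 postnatal ages the F test called miR-26b as deposited (limma, adjusted p = 6.4e-07, 41.7% of probes called) and not after centring (adjusted p = 0.25, 34.9% called).

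miR-26a was dimmer and far more variable at e15.5. Its log2 values there were 1.63, 5.54 and 4.57 in mice 1 to 3, which is 3.1, 46.6 and 23.8 linear units. At 2 weeks they were 7.13, 7.95 and 7.62, at 3 weeks 6.79, 6.49 and 6.85, and at 7 weeks 5.93, 6.47 and 6.05. As deposited no 2 ages overlapped, and the order of the ages was that of miR-26b, but neighbouring postnatal ages did not differ beyond the fitted error. After centring, the e15.5 values overlapped those at 2 and 3 weeks, and the 2-week values overlapped those at 3 and 7 weeks. Here too, how many other probes showed no overlap was not counted. The SD at e15.5, 2.04, was the largest of the 114 probes, whose median SD there was 0.28, and that of miR-26b, 0.13, ranked 87.

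As deposited, miR-26a rose against the fetal livers by 3.65, 2.80 and 2.23 at 2, 3 and 7 weeks, each ± 0.79 (log2 change ± SE; limma, adjusted p = 0.0033, 0.013 and 0.044). Without e15.5 mouse 1 these changes were 2.51, 1.65 and 1.09 (adjusted p = 0.00023, 0.0029 and 0.027). The 7-week call held when e15.5 mouse 1 or mouse 2 was dropped and was lost when any of the other 10 livers was (limma, highest adjusted p 0.11). The F test over 4 ages called miR-26a as deposited (limma, adjusted p = 0.012) and not after centring (adjusted p = 0.13).

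After centring on the bright probes, no rise of miR-26a was called. Quantile normalisation gave called changes of 7.56, 7.61 and 8.11 at 2, 3 and 7 weeks (limma, adjusted p = 0.0065, 0.0058 and 0.0041). In e15.5 mice 1 and 3 miR-26a ranked 194 and 211. At those ranks the 3-week livers hold floor values, with 187 to 196 of 355 probes there. Quantile normalisation averages such values in, so the sizes of its changes depend on the floor. The centred changes were 1.91 (95% interval 0.15 to 3.66), 1.41 (-0.35 to 3.17) and 1.97 (0.21 to 3.72), with limma adjusted p = 0.056, 0.13 and 0.067. Without e15.5 mouse 1 the centred changes were 0.78 (-0.01 to 1.57), 0.28 (-0.51 to 1.08) and 0.84 (0.04 to 1.63), with adjusted p = 0.072, 0.47 and 0.077. The centred e15.5 values were 2.51, 6.32 and 5.46, and that of mouse 2 exceeded all 3-week livers (6.05 to 6.29) and 1 liver at 2 weeks (6.07).

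**Figure D2:**
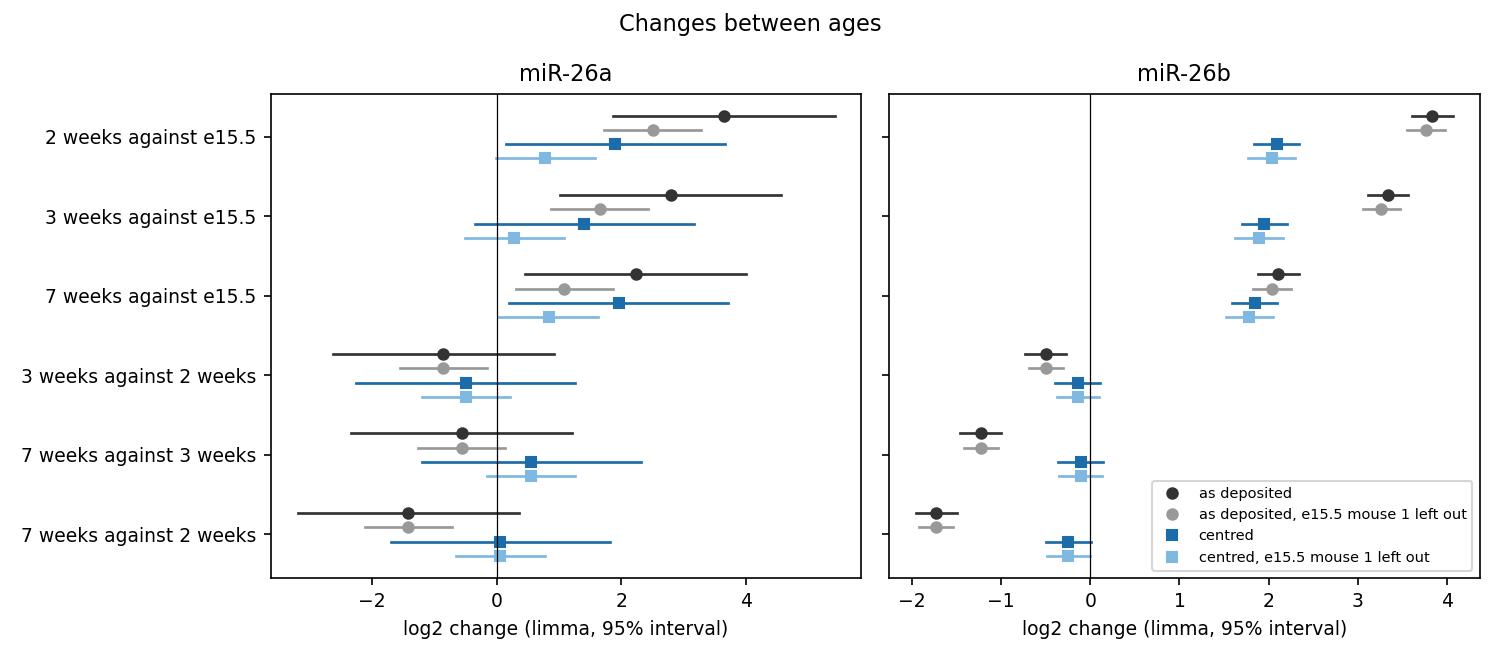
Each point is the log2 change between 2 ages with its 95% interval from limma, for miR-26a (left) and miR-26b (right), as deposited (circles) and centred (squares), each with and without e15.5 mouse 1. For miR-26b the 3 changes against e15.5 lie between 1.78 and 3.84 in all settings, and its postnatal changes approach 0 after centring; for miR-26a the changes against e15.5 shrink when centred and again without that liver.

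With all 12 livers in the fit, miR-26a passed no test between postnatal ages, as deposited or centred. Other settings under which it was called are given in the closing section. As deposited its log2 changes were -0.86 from 2 to 3 weeks, -0.56 from 3 to 7 weeks and -1.42 from 2 to 7 weeks (limma, adjusted p = 0.69, 0.65 and 0.19), with a spread that was shared with the variable e15.5 livers. Without e15.5 mouse 1 the change from 2 to 7 weeks was called (-1.42, adjusted p = 0.0047), but after centring it was 0.06 (95% interval -1.70 to 1.82).

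The e15.5 liver of mouse 1 was low for miR-26a but not low in total signal, at 172057 linear units against 164043 and 148505 in its group. On the centred scale miR-26a there lay 3.38 below the mean of the other two e15.5 livers, the lowest of the 114 probes, and miR-26b lay 0.17 below it. In all, 10 of the 114 probes were more than 1 below and 0 more than 1 above, and the next lowest were miR-24 (-2.09), miR-30e (-2.04) and miR-27b (-1.69). The cause was not tested.

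Both miRNAs are described as abundant in adult liver, which probe signals cannot settle: probes differ in capture, and whether the panel dims the miR-26a probe by design is not known here. The ranks below are therefore of signals, not molecules. At 7 weeks miR-26b ranked 32 to 36 of 355 probes by signal and took 0.346 ± 0.034% of the total (SD, n = 3), up from ranks 77 to 83 and 0.125 ± 0.020% at e15.5. Its share was highest at 2 weeks, 0.541 ± 0.078%. At 7 weeks miR-26a ranked 90 to 98 and took 0.0289 ± 0.0063%, against ranks 147 to 211 and 0.0154 ± 0.0133% at e15.5.

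Whether the family members changed by unequal amounts was asked with the log2 difference within each liver, miR-26b minus miR-26a, which does not move with a scaling factor per liver. It was 5.86, 2.14 and 3.17 in e15.5 mice 1 to 3, and 3.72 ± 1.92 on average (SD, n = 3). It was 4.32, 3.51 and 3.90 at 2 weeks, 4.28, 4.32 and 4.20 at 3 weeks, and 3.76, 3.39 and 3.65 at 7 weeks. The e15.5 livers spanned all the others, and the ages did not differ beyond the spread (exact permutation of the F ratio over 4 ages, p = 0.84). Without e15.5 mouse 1 both remaining fetal livers lay below all 9 postnatal ones and that p was 0.0017. That liver held the highest difference of any liver, so a p found by dropping it is no evidence of unequal change. Without e15.5 mouse 2 or mouse 3 instead, the exact permutation p was 0.61 and 0.83. Without e15.5 mouse 1 the difference was higher than at e15.5 by 1.25, 1.61 and 0.95 at 2, 3 and 7 weeks. Each had an exact permutation p of 0.1, or 0.15 after adjustment. As 2 livers against 3 cannot give a p below 0.1, no pair could have passed.

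Among postnatal livers the difference was higher in all 3 livers at 3 weeks than in any at 7 weeks, by 0.66 on the log2 scale. The two-sided exact permutation test gave p = 0.1, below which 3 livers against 3 cannot go, and 0.6 after adjustment over the 6 pairs of ages. Over the 3 postnatal ages the exact permutation p was 0.093.

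**Figure D3:**
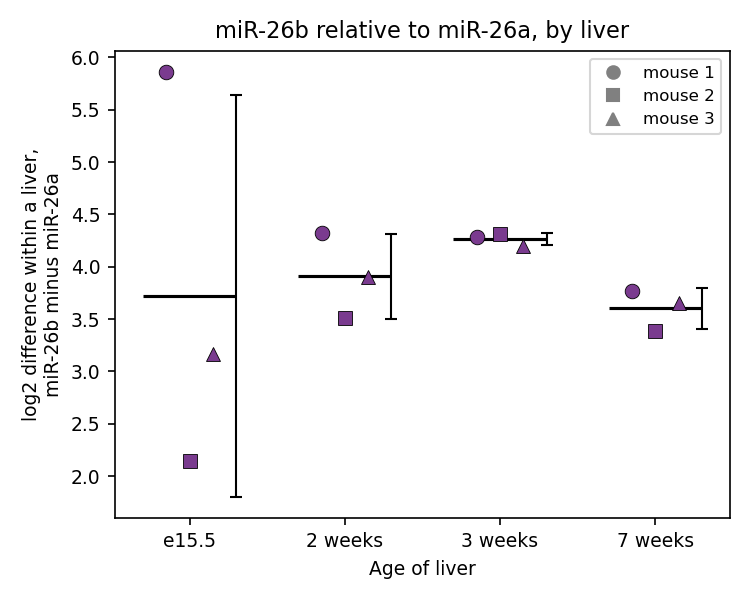
The log2 difference between miR-26b and miR-26a within each liver is plotted by age; symbols are mice, horizontal lines are means and bars are SDs of 3 livers. The e15.5 livers run from 2.14 to 5.86, while the 9 postnatal livers lie between 3.39 and 4.32.

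The share of the miRNA signal taken by markers of several cell types differed between the same ages. Hepatocyte markers (miR-122, miR-192, miR-194 and miR-148a, 4 of 4 on the panel) took 8.03 to 10.6% of the signal in fetal livers. At 2, 3 and 7 weeks their ranges were 33.6 to 41.1%, 42.4 to 46.2% and 36.8 to 37.6%. Erythroid markers (3 of 3) took 7.21 to 10.5% at e15.5 and 1.01 to 2.30% afterwards, and leukocyte markers (5 of 5) 4.0 to 4.85% and then 0.355 to 0.526%. Endothelial markers (2 of 2) took 2.97 to 3.41% at e15.5 and 4.31 to 8.21% afterwards. Biliary and epithelial markers (5 of 5) took 0.107 to 0.157% in fetal livers and, in order of age, 0.265 to 0.362%, 0.128 to 0.186% and 0.0515 to 0.0715% after birth, with miR-141 at the floor in all livers at e15.5, 2 and 7 weeks and miR-429 in all at 7 weeks. Mesenchymal markers (5 of 5) took 0.894 to 1.05% at e15.5. After birth they took, in order of age, 1.08 to 1.29%, 0.787 to 0.893% and 0.584 to 0.639%, with miR-214 at the floor in all 3-week livers. The part of these cell types in the miR-26 changes was not tested. In whole liver fewer cells of a type and less RNA per cell cannot be told apart.

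miR-26b was set against the hepatocyte miRNA miR-122, the let-7 family (8 probes) and the miR-30 family (5 probes). The let-7 family restrains growth in differentiated tissue, and the miR-30 family is abundant in liver. These references were chosen after the values were seen. Since miR-30c, miR-30a and let-7a were among the probes most like miR-26b, small differences from those families are no independent evidence. The log2 difference from miR-122 changed by 0.14 from e15.5 to 2 weeks and by -0.49 to 7 weeks. That from the let-7 mean changed by 0.32 and 0.20, and that from the miR-30 mean by -0.05 and -0.29, against rises of miR-26b itself of 3.84 and 2.11. Over 4 ages the exact permutation p for miR-26b was 0.091 against miR-122, 0.16 against let-7 and 0.18 against miR-30, each 0.23 after adjustment over the 12 tests of this kind. The smallest, 0.036 against miR-122 over the postnatal ages, also became 0.23. For miR-26a the p over 4 ages lay between 0.70 and 0.93. Its differences from miR-122, let-7 and miR-30 had SDs of 2.33, 1.94 and 1.70 at e15.5, and of at most 0.76 later. With that fetal spread these tests cannot show that miR-26a followed the references, and they were not run without e15.5 mouse 1.

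By Pearson's correlation over the 12 livers among the 113 other probes above the floor throughout, the probes most like miR-26b on the deposited scale were miR-30c (r = 0.99), miR-30a, miR-23b, miR-23a and let-7a (r = 0.99 each). On the centred scale they were miR-23b, miR-30c, let-7b, miR-30a and let-7f, with r from 0.98 to 0.99. These livers fall into a fetal and a postnatal cluster, and within the 9 postnatal livers the centred r was 0.26 for miR-23b, 0.56 for miR-30c and 0.91 for let-7f. The values are descriptions, since all probes share the livers and their scaling.

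For miR-26a the most similar probes on the deposited scale were miR-24, miR-101b and miR-30e (r = 0.95 each), miR-27b and miR-193b (0.92 each). On the centred scale they were miR-24 (r = 0.94), miR-101b (0.91), miR-30e (0.90), miR-27b (0.82) and miR-30b (0.82). The first 4 of these were among the 7 probes furthest below their group in e15.5 mouse 1. Without that liver r was 0.45 for miR-24 and 0.52 for miR-30e, but 0.81 for miR-101b, whose centred r was 0.89 within the postnatal livers. miR-26b itself ranked 15 of the 113 on that scale (r = 0.69, and 0.41 within the postnatal livers).

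**Figure D4:**
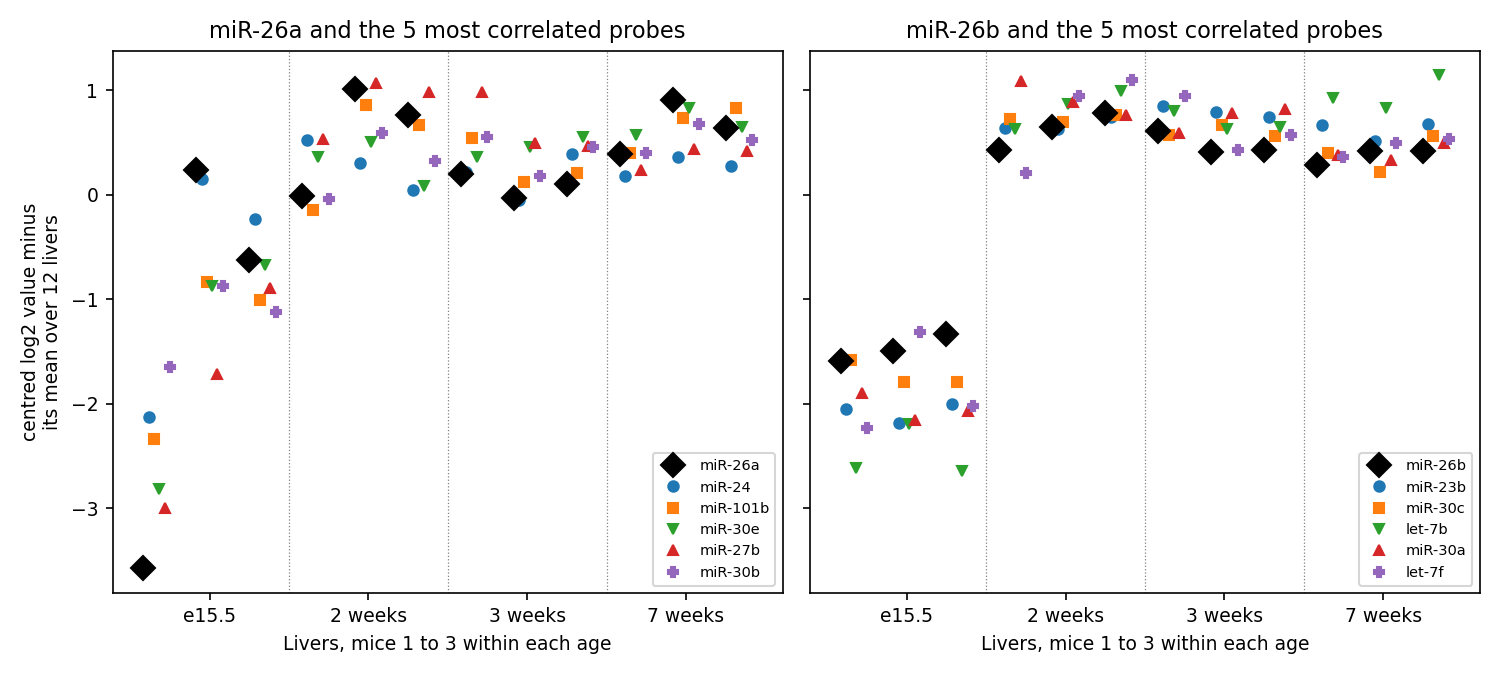
Centred log2 values, each minus its mean over the 12 livers, are plotted per liver for miR-26a (left) and miR-26b (right) and for the 5 probes most correlated with each; dotted lines separate the ages. In e15.5 mouse 1, at the far left, miR-26a and 4 of its 5 neighbours lie more than 2 below their means, while the fetal and postnatal livers of miR-26b form separate levels.

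The resemblance of miR-26a to miR-101b joins miRNAs with a common textbook target, since miR-101 also represses EZH2 in human cells. miR-101b had a fetal log2 mean of 7.57 ± 0.86 (SD, n = 3) and postnatal means of 11.17 ± 0.41, 10.64 ± 0.25 and 9.88 ± 0.19, in order of age. It rose after centring too, by 1.85, 1.68 and 2.04 at 2, 3 and 7 weeks (limma, adjusted p = 0.0025, 0.0039 and 0.0014). Without e15.5 mouse 1 these centred rises of miR-101b were 1.38, 1.21 and 1.57 (limma, adjusted p = 0.0029, 0.0047 and 0.0015). miR-101a was listed at the floor in every fetal liver and had a mean of 6.94 ± 0.52 at 2 weeks.

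Other miRNAs described as restraining growth mostly rose alongside miR-26b. Of 23 probes of that list, 19 of them above the floor in all livers, 18 rose and 2 fell between e15.5 and 2 weeks (limma, adjusted p under 0.05). The 3-week livers had 19 higher and 3 lower, and the 7-week livers 16 and 3. The background was 28.2%, 25.6% and 18.6% of all probes called higher and 22%, 32.7% and 26.2% called lower. After centring the counts were 17 and 3, 16 and 5, and 16 and 5, where 45.6%, 49.9% and 29.3% of all probes were called lower. The 3 that fell at 2 weeks on that scale were miR-15a, miR-15b and miR-16 (-2.36, -2.47 and -1.80). They share a seed and repress cyclins, and were chosen for mention after their values were seen. By contrast miR-195, of the same family, rose on that scale from the floor in every e15.5 liver. With log2(linear + 1), which limits the effect of the floor, the list's median change at 2, 3 and 7 weeks was 3.39, 3.06 and 1.94. Over all 355 probes it was -0.80, -1.17 and -0.61. As deposited the list's median was 3.48, 3.07 and 2.27, against 1.96, 1.65 and 0.41 for the 114 probes above the floor throughout. The 3 called members with the widest changes at 7 weeks were miR-101a and miR-195, both at the floor in every e15.5 liver, and miR-29c, a repressor of matrix transcripts (4.84 as deposited, 4.57 centred).

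Of 11 probes described as promoting proliferation, 9 of them above the floor in all livers, 3 rose and 5 fell at 2 weeks, 2 rose and 5 fell at 3 weeks, and 1 rose and 8 fell at 7 weeks. After centring, 2, 2 and 1 rose and 9, 9 and 8 fell. The background is that given above for the restraining list. The list's median on the log2(linear + 1) scale was -0.58, -1.18 and -2.37, against -0.80, -1.17 and -0.61 over all 355 probes. At 2 and 3 weeks it was thus close to the median of all 355, many of them at the floor in some livers. As deposited the list's median was -0.58, -1.19 and -2.64, below the 1.96, 1.65 and 0.41 of the 114 probes above the floor throughout. Its widest changes at 7 weeks were a rise of miR-21 (4.36 as deposited, 4.09 centred), a fall of miR-93 from the miR-106b cluster (-3.31 and -3.58), and miR-221, at the floor in all 7-week livers and in 1 at e15.5. Without e15.5 mouse 1 the deposited counts of fallen probes were 5, 6 and 7, and those of risen restraining probes were again 18, 19 and 16. Both lists were compiled with earlier results of these data known.

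**Figure D5:**
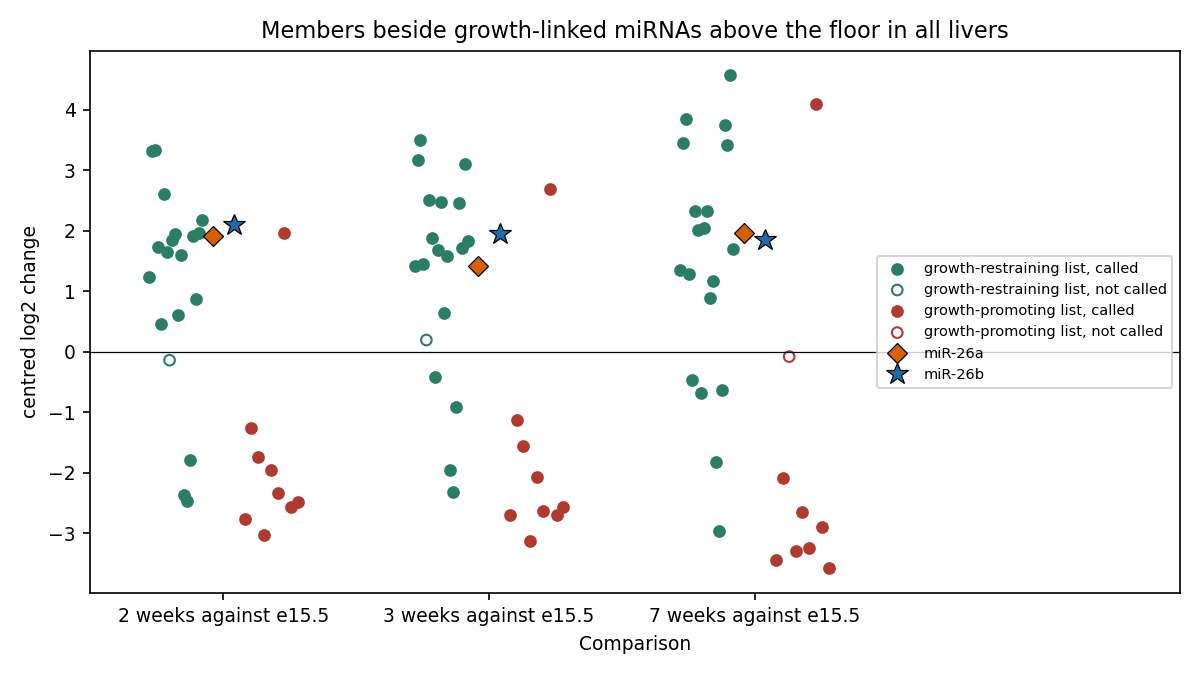
Centred log2 changes against e15.5 are plotted for the growth-restraining (green) and growth-promoting (red) miRNAs above the floor in all 12 livers, with miR-26a (diamond, not called) and miR-26b (star, called) between them; filled circles passed the limma threshold. At 2, 3 and 7 weeks miR-26b lies at 2.09, 1.95 and 1.84, on the side of most of the restraining list. Of all 23 restraining probes, plotted or not, 3, 5 and 5 were called lower at these ages. The promoting list lies below 0 except for miR-21 (1.96, 2.69 and 4.09).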

How the data were processed

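The authors deposited log2 values of 355 mouse probes for 12 livers; the submitters' processing notes name Partek 6.6, and background subtraction and scaling between livers are not given in the sources used here. The lowest value of every column, -9.97 or log2(0.001), was read as at or below background. Raw lane counts were not used here, so no counting intervals are given. All 355 probes and 12 livers entered a linear model with a mean for each age in limma 3.58.1, under R 4.3.3, whose prior variance followed the level. Two-sided p-values were adjusted by Benjamini-Hochberg over the 355 probes per comparison, with 0.05 as threshold. Differences within a liver were tested by exact permutation of livers. For the text, miR-26a, miR-26b, the 5 most correlated probes, miR-101a, miR-101b, miR-122 and the 3 widest called changes per growth list at 7 weeks were named; the members, lists and rules were chosen with earlier results of these data known, and the comparisons with miR-122, let-7 and miR-30 and the probes low in e15.5 mouse 1 after their values were seen. Alternatives were 3 scalings, 2 pseudocounts, 2 filters on low values, a constant prior variance, fits restricted to the ages in question, blocking on mouse number, and dropping each liver. Steps were tested on simulated data. Same-numbered mice of different ages are separate animals: their deviations from the age means correlated between -0.41 and 0.52, above 0.1 in 7 of 18 pairs, so the numbers were not used as a block. The labels say that RNA came from each mouse liver, so p-values measure the spread between these samples. Python 3.11.15 and matplotlib 3.10.9 drew the figures.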

Additional observations from a re-analysis of the deposited data

How the results depend on the processing

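The rises of miR-26b against e15.5 kept their direction and call under all 11 alternatives, at log2 changes of 2.03 to 3.84, 1.89 to 3.34 and 1.78 to 2.60 at 2, 3 and 7 weeks, and without each of the 12 livers, at 3.76 to 3.89, 3.26 to 3.42 and 2.04 to 2.16. Other calls moved with the scaling, the variance model, the ages in the fit, the added units or single livers, and with raw lane counts not used here, no scaling could be checked against counts. The deposited table states no scaling, 3 livers per age limit every test, and the variance of miR-26a in the e15.5 livers sets its error at all ages.

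With centring on the 100 brightest probes, no longer called were miR-26a against e15.5 (1.91, 1.41 and 1.97 at 2, 3 and 7 weeks), miR-26a over 4 ages (limma F test, adjusted p = 0.13), the postnatal changes of miR-26b (-0.14, -0.11 and -0.25) and miR-26b over postnatal ages (adjusted p = 0.25). The uncalled miR-26a changes from 3 and 2 to 7 weeks turned to 0.56 and 0.06, and the growth-promoting list had 9 fallen probes at 2 and at 3 weeks, as it also had with e15.5 mouse 1 left out. That combined setting, chosen after seeing the data, gave miR-26a 0.78, 0.28 and 0.84, none called. With centring on the median, miR-26a was not called at 3 and 7 weeks (1.45 and 1.95) or over 4 ages (limma F test, adjusted p = 0.11), its changes to 7 weeks turned to 0.50 and 0.071, and miR-26b was not called between postnatal ages (-0.074, -0.16 and -0.24; over them adjusted p = 0.46). Quantile normalisation raised miR-26a against e15.5 to 7.56, 7.61 and 8.11, all called, and turned the postnatal changes of miR-26a to 0.049, 0.50 and 0.55. It gave miR-26b -0.26, 0.081 and -0.18 (limma F test, adjusted p = 0.35 over postnatal ages), none called. It turned the difference between the members to -4.78, -5.09 and -5.51 (the last from -0.12) at 2, 3 and 7 weeks against e15.5. The change in that difference from 2 to 3 weeks turned to -0.31, and its exact permutation p over postnatal ages was 0.018. Under quantile normalisation the sizes against e15.5, for miR-26a and for the difference, depend on floor values, as given above.

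Adding 1 or 10 linear units turned the 7-week difference between the members to 0.015 and 0.59, and with 10 the miR-26a change from 2 to 7 weeks was called (-1.30). Without a variance trend, miR-26a at 7 weeks (2.23) and miR-26b from 2 to 3 weeks (-0.50) were not called (limma, adjusted p = 0.059 and 0.12). With only the ages compared in the fit, miR-26a was not called at 3 and 7 weeks (2.80 and 2.23, limma adjusted p = 0.10 and 0.20), but was from 2 to 7 weeks (-1.42) and over postnatal ages (F test, adjusted p = 0.0069). The cause was not tested.

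Without 1 liver each, miR-26a at 7 weeks ranged from 1.09 to 3.05 and its change from 2 to 7 weeks from -1.64 to -1.23, called only without e15.5 mouse 1. Its limma adjusted p over postnatal ages ranged from 0.013 to 0.64, again called only without that liver. The difference between the members against e15.5 ranged from -0.61 to 1.25, from -0.25 to 1.61 and from -0.91 to 0.95 at 2, 3 and 7 weeks, with exact permutation p from 0.0017 to 0.88 over 4 ages and from 0.029 to 0.19 over postnatal ages. Mouse numbers did not pair the livers; with the mouse number as a replicate block, miR-26a at 7 weeks was 2.23 (limma, adjusted p = 0.038) and miR-26b 2.11 (1.2e-06), and no call changed.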
